A study of Homo sapiens with 9 samples.

Results

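Messenger RNA levels were described for 10 genes of the mTORC1 kinase complex and of its arginine and RHEB inputs, out of 61806 genes in the count table, in 786-O cells depleted of TRIM28 or of PARP1. The genes are the arginine sensor CASTOR1, the small GTPases RHEB and RHEBL1, the kinase MTOR, the scaffold subunits RPTOR and RICTOR, the RHEB inhibitors TSC1 and TSC2, and the S6 kinases RPS6KB1 and RPS6KB2. The set was built around CASTOR1 and RHEBL1 which were chosen by their RNA levels, among the largest rises in these same libraries, so the values of both are given as a description with no test. The other 8 genes entered as their pathway partners and were tested. All 10 passed the filter on low counts. In CPM, the count scaled to library size and here also by TMM factors, RHEBL1 was above the filter's level of 0.632 in 8 of the 9 libraries. Each other gene was above it in 9. The filter itself works on CPM before TMM scaling.

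786-O is a human clear cell renal carcinoma line that lacks functional VHL, the ubiquitin ligase subunit that marks HIF proteins for decay. Polyadenylated RNA was sequenced from 3 control libraries, 3 libraries of cells with TRIM28 silenced and 3 libraries of cells with PARP1 silenced, and all carry 1 batch label. The labels call the silencing reagents siRNA in some places and shRNA in another, and describe the control both as a negative control and as parental cells. The labels do not say whether replicates came from separate cultures. Each p-value therefore reflects the variation among these libraries alone, which may be technical. A drop in the RNA of a gene in such bulk libraries cannot be told apart from a smaller number of cells that express it.

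mTORC1 is a protein kinase complex that drives protein synthesis and restrains autophagy when amino acids and growth factors are plentiful. Amino acids bring it to the lysosome through the Rag GTPases, and RHEB in its GTP-bound form switches it on there. CASTOR1 binds GATOR2 when arginine is scarce and so holds the pathway off, while the TSC1 and TSC2 complex turns RHEB to its inactive form. The pathway is of interest in clear cell renal carcinoma because mTORC1 inhibitors are used to treat it. The data here are RNA levels and hold no measurement of kinase activity or of protein.

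The levels of the targeted genes followed their labels. TRIM28 stood at 346 ± 33.0 CPM in the controls (SD, n = 3) and at 52.2 ± 7.33 CPM in the TRIM28 knockdown, 15.1% of control. PARP1 stood at 177 ± 23.7 CPM in the controls and at 5.52 ± 1.19 CPM in the PARP1 knockdown, 3.11% of control, and it was also at 52.9% of control in the TRIM28 knockdown. Library totals ran from 11963110 to 20224374 counts. Markers of the line were present in each library, with PAX8, a renal lineage transcription factor, at 33.11 to 55.06 FPKM, the level scaled to exon length and library size. Some of these markers were near the floor, with PAX2 at 0.38 to 1.04 FPKM and CA9 at 0.23 to 1.32 FPKM. Of 14 markers of other cell types 3 passed the filter on low counts. These were CD68, PECAM1 and COL1A1, at up to 1.08, 0.18 and 0.48 FPKM. PTPRC, CD3E, NPHS1 and AQP2 were at 0 in all libraries.

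The libraries also differed in how level depended on transcript length and base composition. Relative to the average library, log2 level changed per doubling of exon length by 0.203, 0.175 and 0.0725 in the 3 controls, by -0.0105, -0.0244 and -0.00085 in the TRIM28 knockdown and by -0.0968, -0.152 and -0.167 in the PARP1 knockdown. Per 10 percent of GC content it changed by -0.348, -0.296 and -0.0856 in the controls, by -0.104, 0.0224 and 0.0649 in the TRIM28 knockdown and by 0.268, 0.196 and 0.283 in the PARP1 knockdown. The length slopes did not overlap between groups, while the GC slopes of control replicate 3 and TRIM28 knockdown replicate 1 crossed. Across 10 classes of exon length, the median log2 fold change in the PARP1 knockdown ran from 0.65 for the shortest genes to -0.67 for the longest. The values of each member with the length and GC trends removed from each library are printed beside its result. For list genes such values are printed in part, and values not printed may have changed too. The part of these trends in any single gene's change was not tested.

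The upstream windows of 4 members are shown because these genes had the clearest rises and falls. Each is the 250 bases before the RefSeq transcription start on GRCh38, read 5′ to 3′ on the gene's own strand. All letters are in lower case because no motif searched for below matched in them.
CASTOR1: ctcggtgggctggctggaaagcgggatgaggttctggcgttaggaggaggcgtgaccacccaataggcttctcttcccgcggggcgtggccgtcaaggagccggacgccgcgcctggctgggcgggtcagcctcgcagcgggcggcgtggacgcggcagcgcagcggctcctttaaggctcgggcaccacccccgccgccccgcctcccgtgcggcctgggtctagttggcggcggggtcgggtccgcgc
RPS6KB2: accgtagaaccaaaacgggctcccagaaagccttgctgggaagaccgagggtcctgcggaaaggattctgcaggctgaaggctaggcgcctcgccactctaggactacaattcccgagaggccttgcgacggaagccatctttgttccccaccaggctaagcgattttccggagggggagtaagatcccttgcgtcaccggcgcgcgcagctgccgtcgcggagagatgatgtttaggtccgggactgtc
MTOR: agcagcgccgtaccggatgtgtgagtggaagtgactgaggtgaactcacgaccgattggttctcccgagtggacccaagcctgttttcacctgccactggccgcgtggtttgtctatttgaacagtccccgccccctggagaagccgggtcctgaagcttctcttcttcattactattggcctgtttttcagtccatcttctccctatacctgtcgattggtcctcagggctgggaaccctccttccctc
RPS6KB1: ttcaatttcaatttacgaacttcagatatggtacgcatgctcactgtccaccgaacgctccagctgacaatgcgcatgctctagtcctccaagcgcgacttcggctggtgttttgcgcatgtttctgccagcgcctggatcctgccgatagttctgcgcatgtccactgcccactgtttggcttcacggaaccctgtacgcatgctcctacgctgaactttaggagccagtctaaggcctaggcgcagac
The CASTOR1 window lies at chr22:30289506-30289755 on the minus strand and the RPS6KB2 window at chr11:67428244-67428493 on the plus strand. The MTOR window lies at chr1:11262552-11262801 on the minus strand and the RPS6KB1 window at chr17:59892871-59893120 on the plus strand. RefSeq windows were matched for 9 of the 10 members, all but RHEBL1. The CASTOR1 window was 74% G and C with 32 CpG dinucleotides, RPS6KB2 60% with 20, MTOR 55.6% with 11 and RPS6KB1 54% with 16, beside medians of 58% and 11 over 34943 windows of the same length.

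Both strands were searched for 3 motifs: the E-box CACGTG, the core of the amino acid response element TGATGNAA and the cyclic AMP response element TGACGTCA. They occur in 6.32%, 3.15% and 1.63% of all windows. None of the 4 printed windows held any of them, and among the members only an upstream window of TSC2 did, with 1 E-box and 1 TGATGNAA. No match says only that these letters are not in this window.

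CASTOR1, the cytosolic arginine sensor (ENSG00000239282, GRCh38 chromosome 22, 30285117 to 30289622, minus strand), was lowest in the controls and highest in the PARP1 knockdown. Its TMM-scaled level was 0.914, 1.45 and 2.49 CPM in the controls, 2.55, 3.03 and 3.13 CPM in the TRIM28 knockdown and 5.03, 6.34 and 7.12 CPM in the PARP1 knockdown. On this scale the 3 groups did not overlap, although the highest control came close to the lowest TRIM28 library. In FPKM they did overlap, with control replicate 3 at 0.97 and TRIM28 knockdown replicate 1 at 0.94. CASTOR1 was chosen for its rise, so any separation of its groups is a description alone. The group means were 1.62 ± 0.80, 2.91 ± 0.31 and 6.17 ± 1.06 CPM (SD, n = 3 each), and the fitted log2 fold changes against control were 0.83 and 1.91. With the length and GC trends removed they were 0.51 and 1.14, and without control replicate 3 they were 1.31 and 2.41. These values rest on 19 to 76 reads per library, and nearly the whole gene, 4385 bases, lies within an unnamed gene on the same strand, so the assignment of its reads is uncertain.

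CASTOR2, the paralogue that forms dimers with CASTOR1, did not move with it. CASTOR2 was at 4.85 ± 0.414 CPM in the controls (SD, n = 3), 4.65 ± 0.793 in the TRIM28 knockdown and 2.99 ± 0.735 in the PARP1 knockdown. It fell in the PARP1 knockdown, with a log2 fold change of -0.71 ± 0.26 (SE; adjusted p = 0.0207 by edgeR, quasi-likelihood with Benjamini-Hochberg adjustment), and did not pass the test in the TRIM28 knockdown (-0.06 ± 0.24, adjusted p = 0.872 by edgeR). The FPKM ratio of CASTOR1 to CASTOR2 was 0.594, 0.822 and 1.59 in the controls, 2.04, 1.8 and 1.81 in the TRIM28 knockdown and 6.32, 5.0 and 7.59 in the PARP1 knockdown. CASTOR2 was thus the more abundant per length in 2 of the 3 controls, and CASTOR1 in every knockdown library. CASTOR2 had at most 110 reads in any library. Its value with the length and GC trends removed is not given here. The part of these trends in its fall and in the ratio was not tested.

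RHEB, the GTPase that activates mTORC1 (ENSG00000106615, chromosome 7, 151466012 to 151520120, minus strand), was the most abundant member in every group. Its level was 181, 193 and 204 CPM in the controls, 247, 243 and 226 CPM in the TRIM28 knockdown and 229, 264 and 248 CPM in the PARP1 knockdown. Every knockdown library was above every control. The rise passed the test in the PARP1 knockdown (log2 fold change 0.36 ± 0.12, adjusted p = 0.0154 by edgeR) and not in the TRIM28 knockdown (0.31 ± 0.12, adjusted p = 0.0632 by edgeR). Scaled by library totals alone, the PARP1 value was 0.03 (adjusted p = 0.821 by edgeR), a scaling that shifts the median of all genes by -0.33, and with the length and GC trends removed it was 0.54 (0.34 in the TRIM28 knockdown). The PARP1 call was lost in 7 of 20 alternatives, which were library totals, limma in its 3 settings (0.03 each), no filter on low counts (0.33), the compared groups alone (0.34) and the omission of PARP1 knockdown replicate 2 (0.31). The TRIM28 value gained a call in 8 of 20. The processed pseudogenes RHEBP1 and RHEBP2 are counted separately, at up to 93 and 649 reads, so reads may be split between them and RHEB.

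RHEBL1, a close relative of RHEB that can also activate mTORC1 (ENSG00000167550, chromosome 12, 49064676 to 49070025, minus strand), was low throughout. Its level was 1.59, 0.581 and 0.876 CPM in the controls, 1.68, 2.47 and 2.47 CPM in the TRIM28 knockdown and 2.58, 2.88 and 1.58 CPM in the PARP1 knockdown. On this scale the TRIM28 libraries were all above the controls, while the lowest PARP1 library lay just under the highest control. In FPKM, TRIM28 knockdown replicate 1 (1.31) was below control replicate 1 (1.41). The means were 1.01, 2.21 and 2.35 CPM, with fitted log2 fold changes of 1.11 and 1.22 from 12 to 41 reads per library. With the length and GC trends removed these were 0.70 and 0.49, and without control replicate 1 they were 1.60 and 1.72. Per unit length RHEBL1 stayed a small fraction of RHEB, with FPKM ratios from 0.00828 to 0.0239 in the controls and from 0.0174 to 0.0307 over the 6 knockdown libraries.

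MTOR, the catalytic subunit of both mTOR complexes (ENSG00000198793, chromosome 1, 11106535 to 11262556, minus strand), fell in both knockdowns. Its level was 82.3, 83.8 and 62.8 CPM in the controls, 37.9, 39.6 and 40.6 CPM in the TRIM28 knockdown and 29.6, 21.9 and 17.2 CPM in the PARP1 knockdown. The 3 groups did not overlap. The TRIM28 knockdown stood at 51.6% of control (log2 fold change -0.95 ± 0.16, adjusted p = 0.000124 by edgeR) and the PARP1 knockdown at 30.0% (-1.73 ± 0.17, adjusted p = 7.57e-09 by edgeR). The PARP1 knockdown was also lower than the TRIM28 knockdown (-0.77 ± 0.17, adjusted p = 0.0023 by edgeR). The fall against control passed the test in 20 of 20 alternative analyses in both knockdowns. The values against control were -0.63 and -1.14 with the length and GC trends removed. MTOR spans 13373 exonic bases, in the longest class, whose median log2 fold changes were -0.39 and -0.67.

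RPTOR, which recruits mTORC1 substrates (ENSG00000141564, chromosome 17, 80544819 to 80966371, plus strand), did not pass the test. Its level was 121, 117 and 125 CPM in the controls, 94.4, 120 and 123 CPM in the TRIM28 knockdown and 138, 86.2 and 100 CPM in the PARP1 knockdown. The PARP1 libraries lay on both sides of the controls. The log2 fold changes were -0.11 ± 0.15 and -0.16 ± 0.15 (adjusted p = 0.637 and 0.367 by edgeR). The PARP1 value depended on the scaling, at -0.47 with library totals (adjusted p = 0.0291 by edgeR) 0.36 with the length trend removed (adjusted p = 0.0467 by edgeR) and -0.38 without PARP1 knockdown replicate 1 (adjusted p = 0.0112 by edgeR). The values were -0.02 and -0.13 with the length and GC trends removed.

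RICTOR, the scaffold of mTORC2 in place of RPTOR (ENSG00000164327, chromosome 5, 38937920 to 39074399, minus strand), was the least abundant member per unit length, with a mean of 0.153 FPKM in the controls. Its level was 2.17, 1.89 and 1.52 CPM in the controls, 1.49, 2.15 and 1.81 CPM in the TRIM28 knockdown and 0.795, 1.44 and 2.37 CPM in the PARP1 knockdown. The groups overlapped, and 12 to 45 reads per library limit what could be detected. The log2 fold changes were -0.04 ± 0.36 and -0.32 ± 0.38 (adjusted p = 0.949 and 0.476 by edgeR). Both turned in sign with the length and GC trends removed, to 0.49 and 0.51 (adjusted p = 0.316 and 0.254 by edgeR). The FPKM ratio of RPTOR to RICTOR ranged from 75.3 to 109 in the controls, from 71.1 to 86.9 in the TRIM28 knockdown and from 54.9 to 216 in the PARP1 knockdown. RICTOR overlaps OSMR on the other strand by 7677 bases, and whether the counting used strand is not stated in the sources used.

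TSC1, the stabilising subunit of the RHEB inhibitor (ENSG00000165699, chromosome 9, 132891348 to 132946874, minus strand), was lower in the PARP1 knockdown. Its level was 14.8, 14.5 and 11.7 CPM in the controls, 12, 9.88 and 9.76 CPM in the TRIM28 knockdown and 8.88, 8.12 and 10.3 CPM in the PARP1 knockdown. All 3 PARP1 libraries were below the controls, while 1 TRIM28 library was above the lowest control. The PARP1 value passed the test (log2 fold change -0.59 ± 0.18, adjusted p = 0.00784 by edgeR) and the TRIM28 value did not (-0.37 ± 0.18, adjusted p = 0.124 by edgeR). With library totals the TRIM28 value did pass (-0.53, adjusted p = 0.0453 by edgeR). The PARP1 call did not survive removal of the length trend (0.06) or of the length and GC trends (0.25, and 0.08 in the TRIM28 knockdown), and it was lost without control replicate 1 (-0.49) or 2 (-0.51).

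TSC2, which carries the GTPase-activating domain (ENSG00000103197, chromosome 16, 2047967 to 2089491, plus strand), did not pass the test. Its level was 70.1, 71.7 and 76.6 CPM in the controls, 55.4, 69.9 and 75.8 CPM in the TRIM28 knockdown and 85.2, 59.2 and 66.0 CPM in the PARP1 knockdown. The log2 fold changes were -0.12 ± 0.15 and -0.05 ± 0.15 (adjusted p = 0.574 and 0.78 by edgeR). With the length trend alone removed the PARP1 value was 0.59 (adjusted p = 0.00302 by edgeR), and with the length and GC trends removed it was 0.08 (0.05 in the TRIM28 knockdown). TSC2 overlaps PKD1 on the other strand by 784 bases. The FPKM ratio of TSC1 to TSC2 was 0.23, 0.219 and 0.165 in the controls, 0.235, 0.154 and 0.139 in the TRIM28 knockdown and 0.114, 0.15 and 0.168 in the PARP1 knockdown, with overlap between all groups.

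**Figure D1:**
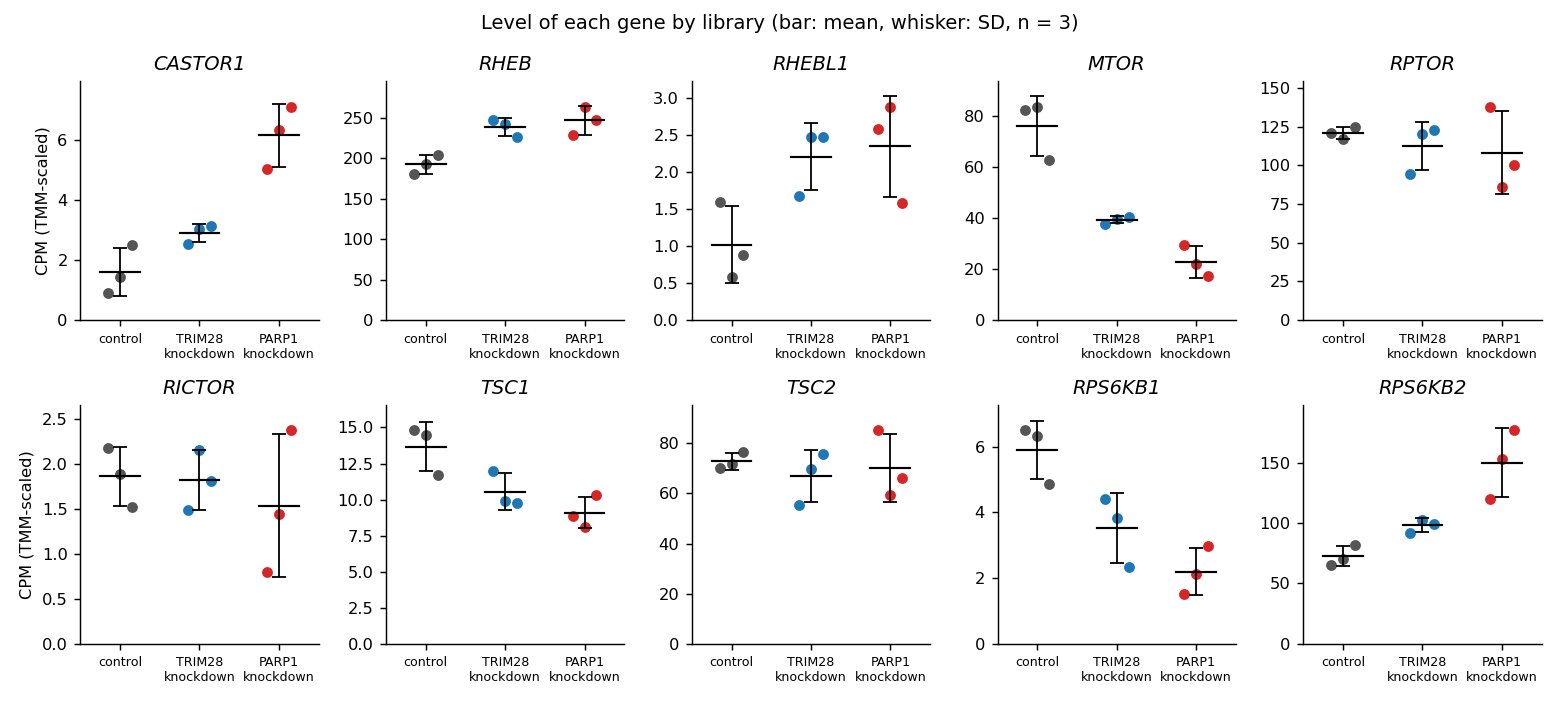
TMM-scaled level in CPM of each of the 10 genes (vertical axes, from 0) in the control, TRIM28 knockdown and PARP1 knockdown groups; points are libraries, bars group means and whiskers the SD. MTOR drops from 62.8 to 83.8 CPM in the controls to 17.2 to 29.6 CPM in the PARP1 knockdown, and RPS6KB2 climbs from 65.7 to 81.6 CPM to 120 to 177 CPM.

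RPS6KB1 and RPS6KB2 encode the S6 kinases, which mTORC1 phosphorylates and which act on ribosomal protein S6. They moved in opposite directions. RPS6KB1 (ENSG00000108443, chromosome 17, 59893046 to 59950574, plus strand) was at 6.5, 6.34 and 4.88 CPM in the controls, 4.42, 3.83 and 2.35 CPM in the TRIM28 knockdown and 1.52, 2.11 and 2.97 CPM in the PARP1 knockdown. Every knockdown library was below every control, from only 39 to 71 reads per TRIM28 library and 23 to 30 reads per PARP1 library. It fell to 37.3% of control in the PARP1 knockdown (log2 fold change -1.45 ± 0.29, adjusted p = 0.000141 by edgeR), a call kept in 20 of 20 alternatives, at -0.74 with the length and GC trends removed. The fall to 59.8% in the TRIM28 knockdown (-0.75 ± 0.27, adjusted p = 0.041 by edgeR) lost its call in 9 of 20, among them removal of the length and GC trends (-0.33), and the omission of 1 library: control 1 (-0.65), control 2 (-0.67), TRIM28 knockdown 2 (-0.77) or TRIM28 knockdown 3 (-0.49).

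RPS6KB2 (ENSG00000175634, chromosome 11, 67428460 to 67435401, plus strand) was at 65.7, 70.2 and 81.6 CPM in the controls, 91.8, 103 and 99.6 CPM in the TRIM28 knockdown and 120, 153 and 177 CPM in the PARP1 knockdown. The 3 groups did not overlap. It rose to 207% of control in the PARP1 knockdown (log2 fold change 1.05 ± 0.14, adjusted p = 1.11e-06 by edgeR), again in 20 of 20 alternatives, at 0.91 with the length and GC trends removed. It rose to 135% in the TRIM28 knockdown (0.44 ± 0.14, adjusted p = 0.0245 by edgeR), where the call was lost in 8 of 20, with library totals among them (0.28), and the omission of control 1 (0.39), control 2 (0.43), TRIM28 knockdown 2 (0.43) or TRIM28 knockdown 3 (0.44). It was 0.39 with the length and GC trends removed. The PARP1 knockdown exceeded the TRIM28 knockdown (0.61 ± 0.14, adjusted p = 0.00377 by edgeR). RPS6KB2 was the more abundant S6 kinase per length throughout, and its FPKM ratio to RPS6KB1 was 16.7 ± 4.69 in the controls, 39.7 ± 14.7 in the TRIM28 knockdown and 92.6 ± 13.6 in the PARP1 knockdown (SD, n = 3 each), with no overlap between groups. RPS6KB2 and RPS6KB1 differ in GC content, at 57.9% and 38.2%. Genes of like GC content had median log2 fold changes of 0.52 and -0.58 in the PARP1 knockdown. The part of the length and GC trends in this ratio was not tested.

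**Figure D2:**
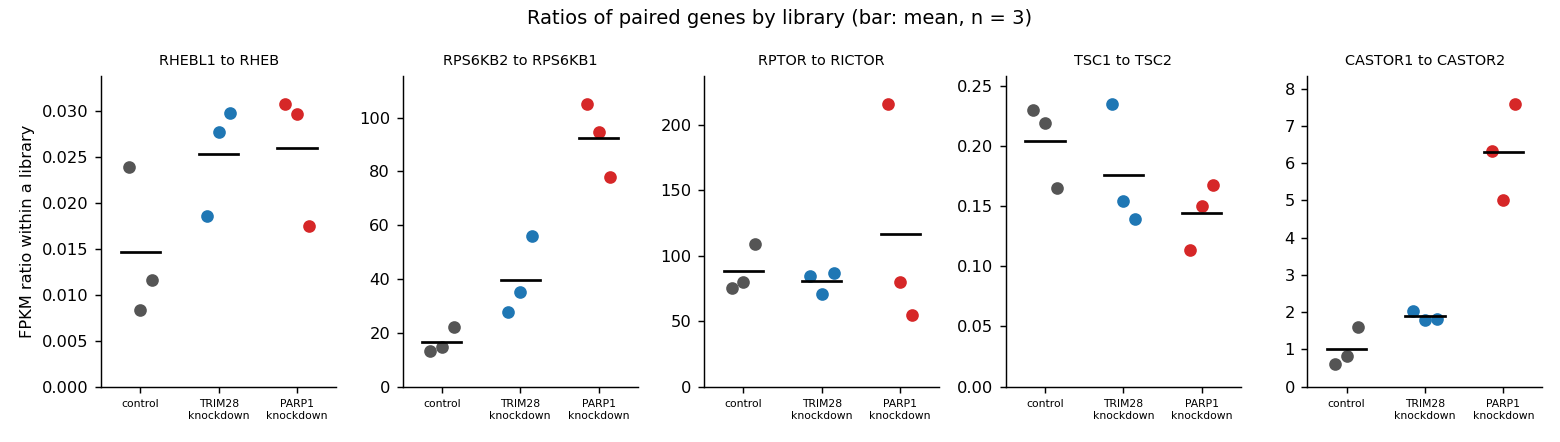
FPKM ratio of paired genes in each library (vertical axes, from 0) by group; points are libraries and bars group means. The ratio of RPS6KB2 to RPS6KB1 runs from 13.4 to 22.1 in the controls and from 78.0 to 105 in the PARP1 knockdown, and the ratio of CASTOR1 to CASTOR2 from 0.594 to 1.59 and from 5.0 to 7.59. The part of the length and GC trends in these ratios was not tested.

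Of the 8 tested genes, 3 passed in the TRIM28 knockdown, with RPS6KB2 higher and MTOR and RPS6KB1 lower, beside 27.8% of all 13562 tested genes. In the PARP1 knockdown 5 passed, with RHEB and RPS6KB2 higher and MTOR, TSC1 and RPS6KB1 lower, beside 59.3% of all genes. Between the knockdowns 2 passed, RPS6KB2 and MTOR, beside 25.1%. Against these backgrounds the counts say nothing particular about the set. The groups did not overlap for 4, 5 and 2 of the 8 genes in the 3 comparisons, beside 46.4%, 63.5% and 39.4% of all genes. Both knockdowns were compared with the same 3 control libraries.

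**Figure D3:**
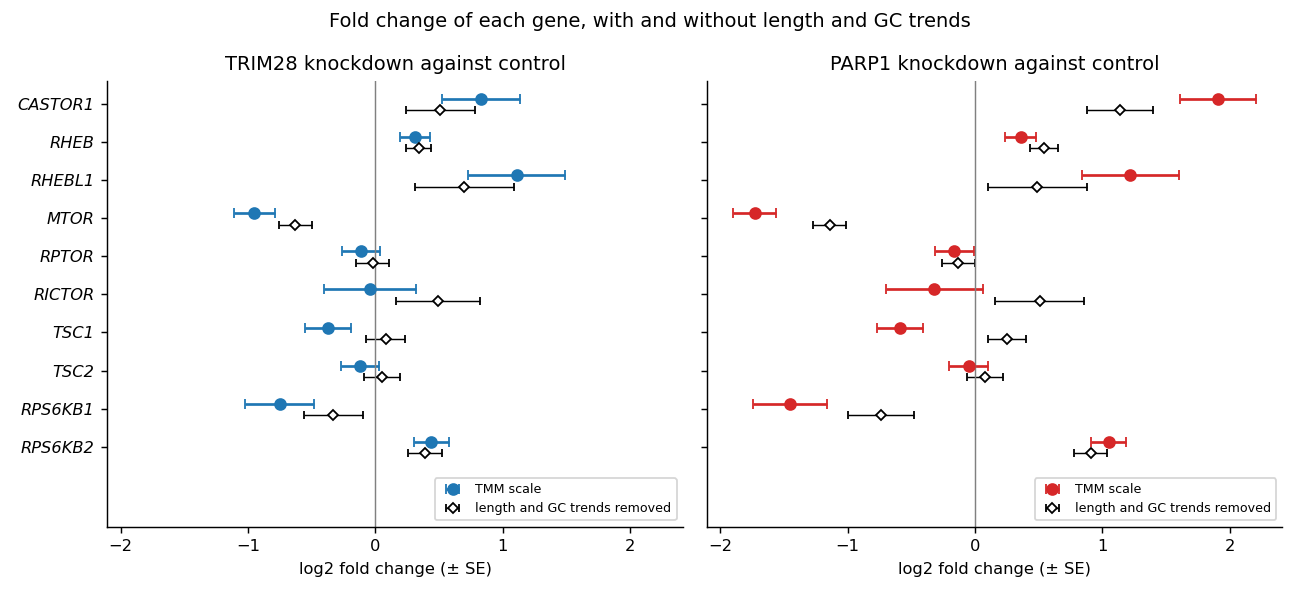
Log2 fold change against control (horizontal axis, bars ± SE) of each gene in the TRIM28 and PARP1 knockdowns, on the TMM scale (filled) and with length and GC trends removed (open). MTOR stays below 0 in both settings and TSC1 in the PARP1 knockdown moves from -0.59 to 0.25.

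**Figure D4:**
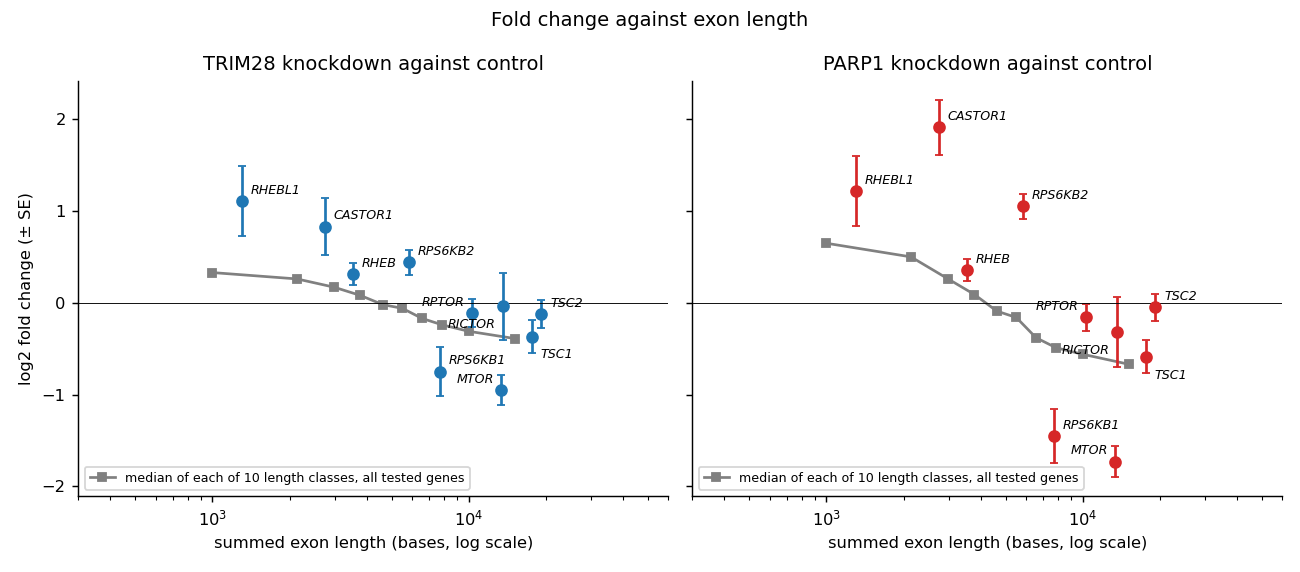
Log2 fold change against control (vertical axis, bars ± SE) against summed exon length in bases (log axis) for the 10 genes, with the medians of all tested genes in 10 length classes (grey). The class medians fall with length in both panels, and in the PARP1 knockdown MTOR at -1.73 and RPS6KB1 at -1.45 lie below them while RPS6KB2 at 1.05 and CASTOR1, chosen for its rise, at 1.91 lie above. GC content is not shown. Genes of like GC content had medians there of -0.58 for RPS6KB1 and 0.52 for RPS6KB2.

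The order of abundance per unit length changed at the middle ranks. RHEB (60.9 FPKM in the controls) led in each group and RPS6KB2 and RPTOR (13.9 and 13.2 FPKM, overlapping) followed. MTOR was at 6.41 FPKM in the controls, 2.95 FPKM in the TRIM28 knockdown and 1.55 FPKM in the PARP1 knockdown. In the PARP1 knockdown the libraries of MTOR overlapped those of CASTOR1 (1.99 FPKM) and RHEBL1 (1.62 FPKM), which had been at 0.65 and 0.88 FPKM in the controls.

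The counts of the gene lists that follow stand beside 10.3% of all tested genes higher and 17.5% lower in the TRIM28 knockdown, and 27.1% higher and 32.2% lower in the PARP1 knockdown. This split depended on the scaling. With library totals, 453 genes were higher and 2856 lower in the TRIM28 knockdown in place of 1394 and 2374, and 2024 higher and 5803 lower in the PARP1 knockdown in place of 3681 and 4361.

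Among the other subunits and assembly factors of the mTOR complexes, 2 of 8 were higher and 1 lower in the TRIM28 knockdown, and 4 higher and 2 lower in the PARP1 knockdown. MLST8, a subunit of both complexes, rose in both (log2 fold changes 0.51 ± 0.15 and 1.09 ± 0.15, adjusted p = 0.0156 and 1.44e-06 by edgeR). AKT1S1, which encodes the mTORC1 inhibitor PRAS40, rose by 0.45 ± 0.14 and 0.83 ± 0.14. TTI1, a factor that helps fold and assemble MTOR, fell in both (-0.88 ± 0.20 and -1.53 ± 0.21). The TRIM28 rises of MLST8 and AKT1S1 lost their calls with library totals (0.35 and 0.29) and without single control or TRIM28 libraries. With the length and GC trends removed the PARP1 values were 0.54 for MLST8, 0.57 for AKT1S1 and -1.26 for TTI1. MAPKAP1, an mTORC2 subunit, fell in the PARP1 knockdown (-0.44 ± 0.13), and stood at 0.01 with the length and GC trends removed.

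Of the amino acid sensors and transporters, 9 of 10 were tested. In the TRIM28 knockdown 0 were higher and 1 lower, and in the PARP1 knockdown 2 were higher and 5 lower. SLC7A1, a carrier that brings arginine into the cell, fell in both (log2 fold changes -0.93 ± 0.19 and -1.28 ± 0.19, adjusted p = 0.000885 and 3.93e-06 by edgeR). SLC36A1, a lysosomal amino acid transporter, fell in the PARP1 knockdown (-2.05 ± 0.17), where SLC3A2, the heavy chain of amino acid exchangers, rose (0.58 ± 0.13). The leucine sensor SESN2 also rose there (0.53 ± 0.14), and was at 0 with the length and GC trends removed. SESN1, of the same list, fell in the PARP1 knockdown (-2.09 ± 0.57), from at most 26 reads in any library. With library totals SESN2 (0.21) and SLC3A2 (0.25) did not pass. With the length and GC trends removed the PARP1 values were -0.94 for SLC7A1, -1.64 for SLC36A1 and 0.52 for SLC3A2. SLC38A9, the lysosomal arginine sensor, did not pass the test (-0.16 ± 0.25 and -0.38 ± 0.26).

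Of the 12 genes of GATOR and KICSTOR, which relay amino acid signals to the Rag GTPases, 1 was higher and 1 lower in the TRIM28 knockdown, and 4 higher and 1 lower in the PARP1 knockdown. NPRL2, a GATOR1 subunit, rose (0.49 ± 0.17 and 0.96 ± 0.17). SEH1L, a GATOR2 subunit that also belongs to the nuclear pore, fell (-0.55 ± 0.15 and -1.33 ± 0.15). KPTN, of KICSTOR, rose in the PARP1 knockdown (0.97 ± 0.21), and its call was lost with the length and GC trends removed (0.04). Of 11 tested Rag, Ragulator and folliculin genes, 4 were higher and 2 lower in the TRIM28 knockdown, and 4 higher and 3 lower in the PARP1 knockdown. The Ragulator subunits LAMTOR1 (0.46 ± 0.14 and 0.91 ± 0.14) and LAMTOR2 (0.45 ± 0.15 and 0.90 ± 0.15) were higher in both knockdowns. So were LAMTOR4 (0.48 ± 0.16 and 1.33 ± 0.16) and LAMTOR5 (0.54 ± 0.14 and 0.97 ± 0.14). The subunit LAMTOR3 was lower (-0.58 ± 0.17 and -0.79 ± 0.17), and RRAGC was lower (-0.57 ± 0.19 and -1.20 ± 0.19). In the TRIM28 knockdown the calls of NPRL2 (0.28), SEH1L (-0.03) and RRAGC (-0.31) were lost with the length and GC trends removed, and that of LAMTOR3 when single control or TRIM28 libraries were left out. With the length and GC trends removed the PARP1 values were 0.61 for NPRL2, -0.44 for SEH1L, -0.45 for LAMTOR3 and -0.67 for RRAGC. They were 0.39 for LAMTOR4 and 0.91 for LAMTOR5, and the TRIM28 call of LAMTOR1 was lost (0.17).

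Of 19 tested genes in the growth factor and energy arm above TSC, 2 were higher and 8 lower in the TRIM28 knockdown, and 3 higher and 10 lower in the PARP1 knockdown. PDPK1, the kinase that activates AKT, fell (log2 fold changes -1.41 ± 0.20 and -1.49 ± 0.20, adjusted p = 1.62e-05 and 1.08e-06 by edgeR), as did the adaptor IRS2 (-0.80 ± 0.16 and -1.34 ± 0.17). AKT1 rose (0.41 ± 0.13 and 0.87 ± 0.13), and so did STK11, the kinase LKB1 (0.37 ± 0.14 and 0.96 ± 0.14). The TRIM28 rises of AKT1 (0.26) and STK11 (0.21) did not pass with library totals. Both calls were also lost when control replicate 1, control replicate 2, TRIM28 knockdown replicate 2 or TRIM28 knockdown replicate 3 was left out. The PARP1 values were -0.94 for PDPK1, -1.33 for IRS2, 0.84 for AKT1 and 0.77 for STK11 with the length and GC trends removed. The median log2 fold changes were -0.33 and -0.72, beside -0.02 and -0.07 over all tested genes, and the list's median exon length was 8811 bases.

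Of 16 substrates and outputs, 1 was higher and 6 lower in the TRIM28 knockdown, and 5 higher and 8 lower in the PARP1 knockdown. EIF4B, an initiation factor acted on by S6 kinase, fell in both (log2 fold changes -1.26 ± 0.15 and -2 ± 0.15, adjusted p = 2.05e-06 and 3.06e-10 by edgeR), and so did LARP1, which binds mRNAs of the translation machinery (-1.17 ± 0.16 and -1.96 ± 0.17). With the length and GC trends removed the PARP1 values were -1.4 for EIF4B and -1.35 for LARP1. MAF1, a repressor of RNA polymerase III, rose by 0.41 ± 0.15 and 1.15 ± 0.15, and its calls were lost with these trends removed (0.03 and 0.23). EIF4EBP1, the repressor of cap-dependent translation, rose in the PARP1 knockdown (0.95 ± 0.15), but with the length and GC trends removed it was lower (-0.27, adjusted p = 0.027 by edgeR). Over the 6 network lists together, 75 genes were tested. Of these 13.3% were higher and 25.3% lower in the TRIM28 knockdown, and 29.3% higher and 38.7% lower in the PARP1 knockdown. Between the knockdowns 20% were higher and 17.3% lower, beside 11.9% and 13.2% of all genes.

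Among the genes whose levels over the 9 libraries were most like those of CASTOR1 were SPR, KEAP1, RCC1L and MLF2, with Pearson r from 0.991 to 0.993. For RHEBL1 they were B3GNT7, LUC7L, AJAP1, NUDT16L2P and USP18, with r from 0.878 to 0.898. These are descriptions over libraries that share the same 3 groups and the same length and GC trends.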

How the data were processed

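Per the file headers, the deposited table holds whole-number read counts and FPKM. The deposited FPKM equal the counts over exon length and library total. Per the submitters' processing notes, the tools included Trim Galore 0.6.6, STAR 2.7.9a and featureCounts 2.0.1, with GRCh38. Annotation release and strand setting: not given in the sources used here. Here, counts of 13562 genes that passed filterByExpr were tested with edgeR 4.0.16 (quasi-likelihood, TMM, 3 groups in 1 fit, 6 residual degrees of freedom, two-sided, Benjamini-Hochberg adjustment over all tested genes, threshold 0.05). CPM values are TMM-scaled and compare libraries, FPKM compares genes. The script was tested on simulated data. Alternatives were DESeq2, other size factors, library totals, no filter, limma on log2(FPKM + 1) or log2(FPKM + 0.1) from the deposited FPKM, the compared groups alone, a replicate block, each library left out, and lowess removal (span 0.3) of length and GC trends, with GC content for 98.7% of tested genes. Members, lists and tests were chosen with earlier results of these data known. The text names all members, both targets and, per list and knockdown, up to 2 genes per direction with the smallest adjusted p, plus the 5 genes most correlated with CASTOR1 and with RHEBL1. 1 gene that this rule names is not reported here. CASTOR2, SLC38A9, SESN1, LAMTOR2, the pseudogenes and some cell type markers were named outside this rule. Of 11 renal line markers 2 were higher and 4 lower in the TRIM28 knockdown and 2 higher and 5 lower in the PARP1 knockdown; of 3 tested markers of other cell types 0 and 1 passed.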

Additional observations from a re-analysis of the deposited data

How the results depend on the processing

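MTOR in both knockdowns, and RPS6KB1 and RPS6KB2 in the PARP1 knockdown, kept direction and call in 20 of 20 alternatives, MTOR between -1.12 and -0.58 (TRIM28) and between -2.04 and -1.11 (PARP1). Genes called in the TRIM28 comparison numbered 3768, against 2353 with limma on log2(FPKM + 0.1), 1069 with limma and no filter and 1537 to 4935 with 1 library left out. Of the 8 members, 3 were called there, against 1 with either of those limma settings and 1 to 4 with 1 library left out (1 without control replicate 1, control replicate 2, TRIM28 knockdown replicate 2 or TRIM28 knockdown replicate 3). Between the knockdowns 3407 genes were called, against 63 with limma and no filter, 1983 with length and GC trends removed and 1654 to 4714 with 1 library left out, and 0 members passed with limma and no filter. In the PARP1 comparison 8042 genes were called, and 6862 to 8295 with 1 library left out. In that comparison the sign turned with the length trend removed for RPTOR (0.36), RICTOR (0.30), TSC1 (0.06) and TSC2 (0.59), and with the length and GC trends removed for RICTOR (0.51), TSC1 (0.25), TSC2 (0.08), EIF4EBP1 (-0.27) and MAPKAP1 (0.01), with SESN2 at 0. In the TRIM28 comparison it turned with the length trend removed for RPTOR (0.20), RICTOR (0.34), TSC1 (0.03) and TSC2 (0.27), and with both trends removed for RICTOR (0.49), TSC1 (0.08) and TSC2 (0.05). With library totals, 640 genes were higher and 2350 lower between the knockdowns, in place of 1612 and 1795. The causes were not tested beyond the construction of each alternative. Whether replicate numbers pair the libraries was not settled. Same-numbered control and TRIM28 libraries deviated together with small correlations of 0.141, 0.011 and 0.106, beside -0.164 to 0.061 for differently numbered ones. For control and PARP1 libraries these were 0.034, 0.03 and 0.08, beside -0.069 to 0.042. Between the knockdowns they were -0.081, 0.009 and -0.042, beside -0.087 to 0.118. With the replicate block 4085, 8071 and 3662 genes were called in the 3 comparisons, and 3, 5 and 2 members; under the block RHEB passed in the TRIM28 comparison (adjusted p = 0.0471 by edgeR) and RPS6KB1 did not (adjusted p = 0.0518). Low counts limit CASTOR1, RHEBL1 and RICTOR, which had at most 76 reads in any library. They also limit RPS6KB1 in the knockdowns, at 71, 48 and 39 reads (TRIM28) and 23, 25 and 30 reads (PARP1).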

Other observations

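RPTOR and TSC2, which code for proteins of different complexes, shared their order over the libraries within each knockdown. In the PARP1 knockdown replicate 1 was highest for both, at 138 CPM for RPTOR and 85.2 CPM for TSC2, and replicate 2 was lowest, at 86.2 and 59.2 CPM. In the TRIM28 knockdown replicate 1 was lowest for both, at 94.4 and 55.4 CPM. The 2 genes have similar GC contents, 59.8% and 60.5%, and both are long, with 10302 and 19128 exonic bases. RICTOR, with a GC content of 36.5%, had its lowest level of all in PARP1 knockdown replicate 1, at 0.795 CPM. In the PARP1 knockdown CASTOR1 and RPS6KB2, with GC contents of 61.7% and 57.9%, went the other way, lowest in replicate 1 at 5.03 and 120 CPM. In the TRIM28 knockdown they too were lowest in replicate 1, at 2.55 and 91.8 CPM. The order shared by RPTOR and TSC2 was picked after its values were seen. Its relation to base composition or length was not tested.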
